A study of Mus musculus with 12 samples.

Results

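The glycosylphosphatidylinositol (GPI) anchor genes described here were chosen by symbol as a list of 31 mouse genes whose products build the anchor, attach it to proteins or trim it afterwards. Of these, 29 had a read in at least 1 library, among 15803 transcripts with a read in the whole series, and 28 had a read in all 12 libraries. The symbols Pigy and Pigz matched no entry and were not analysed here. KPC cells, a single mouse pancreatic ductal adenocarcinoma (PDAC) line, came from a tumor of a mouse with Pdx1-Cre and the allele Trp53 LSL-R172H. They received 20 μM cisplatin (Cis), a platinum drug that damages DNA, for 6 or 21 h, and control cells received PBS (labelled as without treatment). All groups carried the same tumor alleles, and the Cre that recombined them was driven by the pancreatic Pdx1 promoter. Ribosome footprints, the mRNA fragments that ribosomes shield from RNase, and the RNA of the lysates were sequenced in 2 libraries per assay and group. The labels do not give the duration of the PBS treatment or say whether the libraries of a group came from separate cultures, so that p-values measure the spread between these libraries, which may be technical. The same PBS libraries served as control at both time points, and changes at 6 h and at 21 h are therefore not independent.

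A GPI anchor is a glycolipid that holds a protein on the outer face of the plasma membrane. It is assembled on phosphatidylinositol in the endoplasmic reticulum (ER) by stepwise addition of glucosamine, mannoses and phosphoethanolamine, and a transamidase then exchanges the C-terminal signal of a newly made protein for the finished anchor. Lipid and glycan remodelling follows in the ER and the Golgi, and many adhesion molecules, receptors and surface enzymes of epithelial cells are anchored in this way.

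Levels are given as RPKM (reads per kilobase of coding sequence for footprints or of transcript for RNA, relative to the reads of the library), as deposited. Footprint libraries held 3375480 to 5204127 reads. RNA libraries held 1985344 to 2901692 reads, of which Lars2, Tmem38b and Mettl26 took a large share, so that 862476 to 1341584 reads were left for all other transcripts. The keratins and E-cadherin of epithelial cells were abundant, with the 5 epithelial markers summing to 9080 to 9761 footprint RPKM with PBS, 9278 to 9339 at 6 h and 6687 to 6829 at 21 h. In RNA they summed to 1467 to 1521 RPKM with PBS, 1408 to 1466 at 6 h and 1314 to 1361 at 21 h. These sums were lowest at 21 h in both assays, but the markers did not move alike. Krt19 RNA was 477 and 464 RPKM with PBS and 274 and 312 at 21 h. Krt8 RNA was 580 and 537 with PBS and 464 and 482 at 21 h. Krt18 RNA was higher at 21 h, at 544 and 534 against 426 and 421 with PBS. Krt18 footprints at 21 h (1668 and 1856) overlapped those with PBS (1720 and 1570). Among these markers, Epcam was nearly absent, at 0.287 to 1.83 footprint RPKM. The 4 leukocyte markers summed to 1.87 to 2.35 footprint RPKM with PBS, 1.41 to 2.02 at 6 h and 3.57 to 9.68 at 21 h, and in RNA to 0.403 to 1.03, 0 and 2.13 to 4.27, where Cd68 alone had reads. The leukocyte marker Ptprc was at most 0.229 footprint RPKM and at 0 in RNA in every library. The part of these markers' changes in the changes at 21 h below was not tested. The 4 fibroblast markers summed to at most 4.18 and the 2 endothelial markers to at most 0.666 footprint RPKM. In these bulk lysates, fewer cells with a transcript and less of it per cell cannot be told apart as sources of a lower RPKM. Values are relative to the total of each library, so that a change shared by all transcripts would not show.

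Sequences upstream of the start sites are shown for 4 members that passed the test below, a pair that was lower after Cis (Pgap1, Pign) and a pair that was higher (Pigf, Pigh). Each line holds the 250 bases before the RefSeq start of the gene on GRCm38.p6. All 4 genes lie on the minus strand of the chromosome, and each line is read from 5′ to 3′ on that strand. Capitals mark any match, on either strand, to any of 6 motifs. Searched were the CCAAT box, spelled by its name, and the TATA box with the letters TATAAA. The GC box was searched as GGGCGG and the E-box as CACGTG. The ETS site was searched as CCGGAAGT and the cAMP response element as TGACGTCA.
Pgap1, chr1:54557685-54557934: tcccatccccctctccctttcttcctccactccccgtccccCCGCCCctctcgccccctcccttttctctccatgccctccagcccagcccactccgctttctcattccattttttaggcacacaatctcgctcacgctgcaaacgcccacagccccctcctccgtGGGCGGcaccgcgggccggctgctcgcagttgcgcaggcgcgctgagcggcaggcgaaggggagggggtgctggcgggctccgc
Pign, chr1:105663677-105663926: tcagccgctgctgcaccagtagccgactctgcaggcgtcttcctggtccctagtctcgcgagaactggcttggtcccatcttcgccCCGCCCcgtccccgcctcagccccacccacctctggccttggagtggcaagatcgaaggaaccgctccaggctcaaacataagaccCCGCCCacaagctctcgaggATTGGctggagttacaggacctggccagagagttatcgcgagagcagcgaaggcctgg
Pigf, chr17:87025402-87025651: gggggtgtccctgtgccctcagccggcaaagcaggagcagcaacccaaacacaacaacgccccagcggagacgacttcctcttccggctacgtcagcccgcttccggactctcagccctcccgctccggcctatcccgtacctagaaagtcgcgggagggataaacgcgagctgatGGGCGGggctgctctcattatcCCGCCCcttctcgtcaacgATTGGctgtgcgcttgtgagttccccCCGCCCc
Pigh, chr12:79089671-79089920: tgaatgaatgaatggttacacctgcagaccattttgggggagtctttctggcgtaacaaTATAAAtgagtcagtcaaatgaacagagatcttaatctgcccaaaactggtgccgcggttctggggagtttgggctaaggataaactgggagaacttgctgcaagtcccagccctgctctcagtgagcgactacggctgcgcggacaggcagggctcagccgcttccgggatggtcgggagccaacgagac

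GC boxes stood upstream of Pgap1 (2 matches) and Pign (2), which fell, and also of Pigf (3), which rose. The Pigh sequence held no GC box but a TATA box. The RefSeq table held 35 promoters for 24 of the members, and 54.3% of these promoters held a GC box, against 32.7% of all 32851 promoters of the same length. A CCAAT box was found in 28.6% of the member promoters and in 33.8% of all, a TATA box in 11.4% and 12.4%, an ETS site in 11.4% and 2.88%, an E-box in 11.4% and 6.02%, and a cAMP response element in 2.86% and 1.55%. The median GC content was 60.8% for the member promoters and 52.4% for all. These matches are a description of the letters, several promoters belong to the same gene, and no factor binding was measured.

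The members differed widely in level. With PBS, mean footprint RPKM ranged from 0.434 for Pgap4, which adds N-acetylgalactosamine to the anchor in the Golgi, to 98.4 for Dpm1, the catalytic subunit of the enzyme that makes the mannose donor dolichol-phosphate-mannose. The transamidase subunits Pigt (51.1), Pigs (46.3) and Pigk (44.7) followed Dpm1, and the mannosyltransferase Pigv (1.16) and the phosphoethanolamine transferase Pigo (1.65) were among the lowest. Summed over the measured members, footprint RPKM were 596 and 533 with PBS, 607 and 638 at 6 h, and 589 and 599 at 21 h. Summed RNA RPKM were 157 and 168 with PBS, 149 and 143 at 6 h, and 175 and 176 at 21 h. The summed footprints at 21 h lay next to the higher PBS library, and the summed RNA as deposited was highest at 21 h. These sums were not scaled between libraries. The median-of-ratios scaling factors of the RNA libraries were 0.986 and 1.01 with PBS and 0.948 and 0.952 at 6 h. At 21 h they were 1.03 and 1.08, the same order of groups as the sums. The higher RNA sum at 21 h is therefore not shown to be a change of the members. Single members moved in opposite directions, as the plot of RPKM by library shows.

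**Figure D1:**
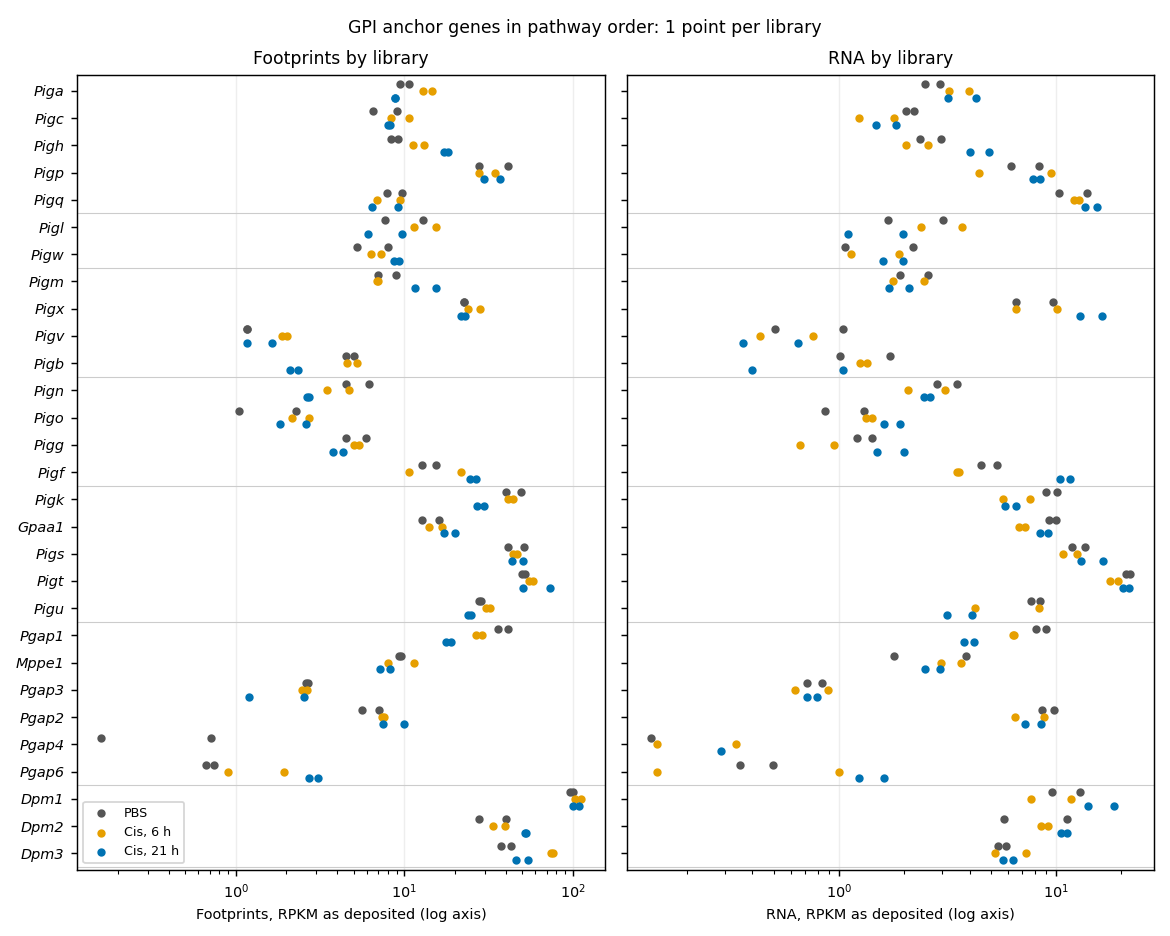
RPKM of the 29 measured GPI anchor genes in pathway order for footprints (left) and RNA (right), on log axes, with 1 point per library (grey, PBS; orange, Cis for 6 h; blue, Cis for 21 h); values of 0, which occur for Pgap4 only, are not drawn. Dpm1 lies near 100 footprint RPKM in all 6 libraries, and Pgap1 is ordered PBS, 6 h, 21 h from high to low in both assays.

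To find which members changed, log2(scaled RPKM + 0.5) was fitted with limma across all transcripts whose scaled RPKM averaged 1 or more, and members with a Benjamini-Hochberg adjusted p under 0.05 over all tested transcripts are called higher or lower. Fold changes below are on this log2 scale with the pseudocount of 0.5, which understates the change of low genes, and are given with the standard error (SE). The filter left 28 members for footprints, all but Pgap4, and 25 for RNA and for the ratio of footprints to RNA (translational efficiency, TE), all but Pgap4, Pgap3, Pgap6 and Pigv. At 6 h, 1 member was called higher in footprints (Dpm3) and 0 lower, where 1.05% of 10390 tested transcripts were higher and 0.991% lower. At 21 h, 5 members were higher (Pigh, Pigm, Pigf, Pgap6, Dpm2) and 4 lower (Pigb, Pign, Pigk, Pgap1), where 18.9% of all tested transcripts were higher and 20.2% lower. The members' shares at 21 h were thus close to that background.

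Between 6 and 21 h, 2 members were higher at 21 h (Pigh, Pigm) and 6 lower (Piga, Pigb, Pigk, Pigu, Pgap1, Dpm3), with 15% of all transcripts higher and 15.7% lower. In RNA, 0 of 25 members were called at 6 h by limma, with a background of 0% of 9459 transcripts. An unadjusted p under 0.05 was seen for 0 members and for 11.5% of all transcripts, and voom fitted to the recovered reads called 0 members and 2.41% of all transcripts. At 21 h, 1 member was higher in RNA (Pigf) and 3 lower (Pigk, Pigu, Pgap1), with 11.6% of all transcripts higher and 12.2% lower. Without scaling, 2 members were higher (Pigf, Pigx) and 2 lower (Pigu, Pgap1). Between 6 and 21 h, Pigf was higher in RNA and Pgap1 lower, with 7.53% of all transcripts higher and 8.2% lower. Without scaling, Pigf alone was called in this comparison, and the median change of all transcripts was 0.15 on the log2 scale in place of 0.01. The median change of the members in footprints was 0.10 on the log2 scale at 6 h (all transcripts, -0.01) and 0.02 at 21 h (all transcripts, 0.01).

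**Figure D2:**
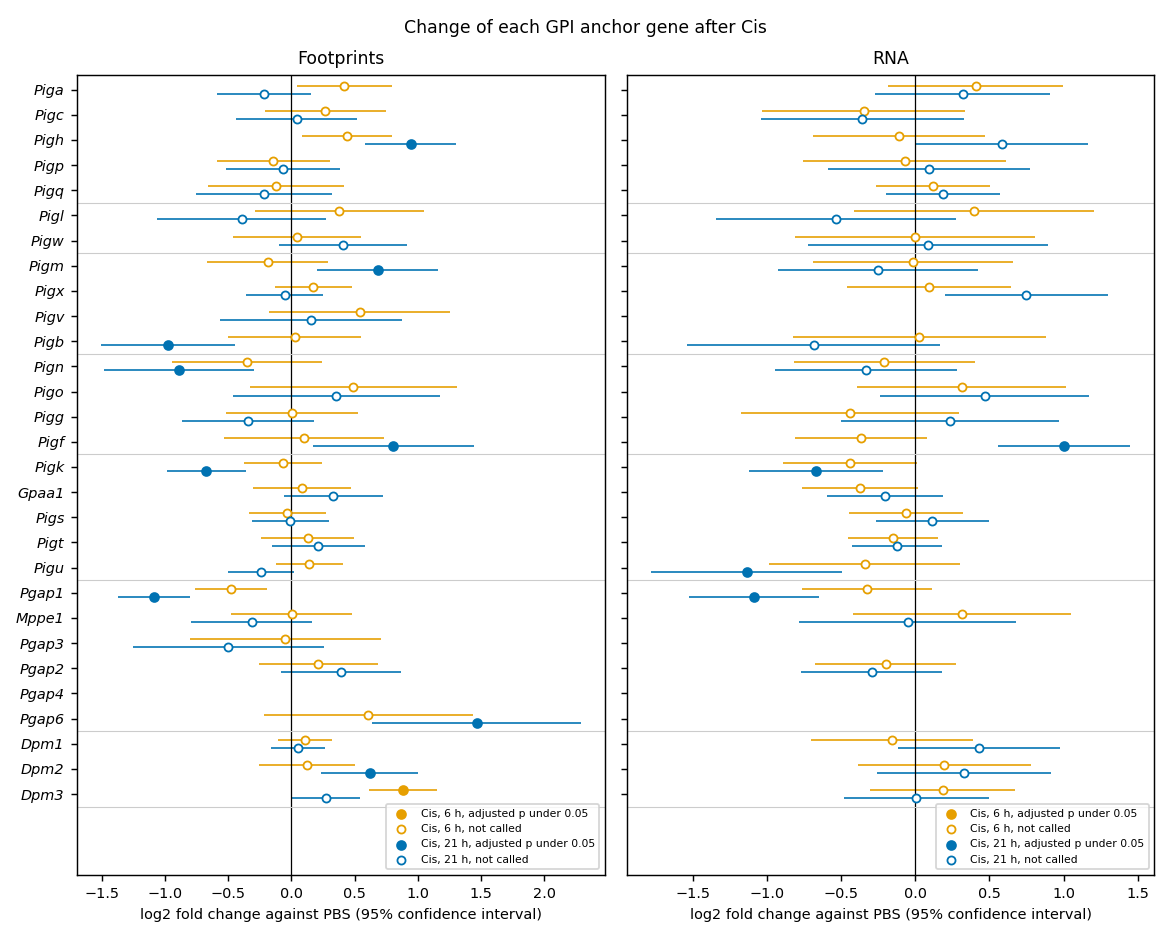
Log2 fold change against PBS of each member for footprints (left) and RNA (right), after 6 h (orange) and 21 h (blue) of Cis, with 95% confidence intervals from limma; filled points have an adjusted p under 0.05 and open points do not, and members under the RPKM filter have no point. At 6 h only Dpm3 footprints are filled, whereas 9 footprint and 4 RNA changes are filled at 21 h.

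The pathway begins with a GlcNAc transferase of several subunits on the cytosolic face of the ER. Its subunit Pigh had footprint RPKM of 9.20 and 8.37 with PBS, 11.3 and 13.1 at 6 h, and 17.3 and 18.3 at 21 h. All 3 groups were apart, with the 21 h libraries highest. Pigh footprints rose 1.93-fold at 21 h (log2 0.94, SE 0.16, adjusted p = 0.00203), and this call held under every alternative and without any single library. RNA of Pigh was 2.95 and 2.36 RPKM with PBS, 2.58 and 2.04 at 6 h, and 4.04 and 4.91 at 21 h, a change of 0.58 on the log2 scale at 21 h with an adjusted p of 0.134. The RNA libraries at 21 h were both above the PBS libraries, from 11 to 24 reads per library. The rise of Pigh footprints from 6 to 21 h was 0.50 on the log2 scale (adjusted p = 0.0405), and this call was lost when any of the 6 libraries was left out (0.0571 to 0.2), with voom (0.17), without the filter (0.0629), with only the groups compared (0.0548) and with the replicate number as a block (0.0585).

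Piga, the catalytic subunit of the transferase, had footprint RPKM of 10.7 and 9.44 with PBS, 12.9 and 14.7 at 6 h, and 8.76 and 8.85 at 21 h. The 6 h libraries were highest and the 21 h libraries lowest, without overlap. Piga footprints fell 1.55-fold from 6 to 21 h (log2 -0.63, SE 0.16, adjusted p = 0.0201), while the change against PBS was 0.42 at 6 h (adjusted p = 0.189) and -0.22 at 21 h (adjusted p = 0.328). The call between 6 and 21 h was lost when any of the 4 libraries compared was left out (0.0528 to 0.127). Piga RNA was 2.94 and 2.49 RPKM with PBS, 3.22 and 3.97 at 6 h, and 4.30 and 3.19 at 21 h, and its 0.41 at 6 h (adjusted p = 0.576) was the highest RNA log2 change of any member at that time. Pigc, Pigp and Pigq, further subunits, were not called in any comparison.

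**Figure D3:**
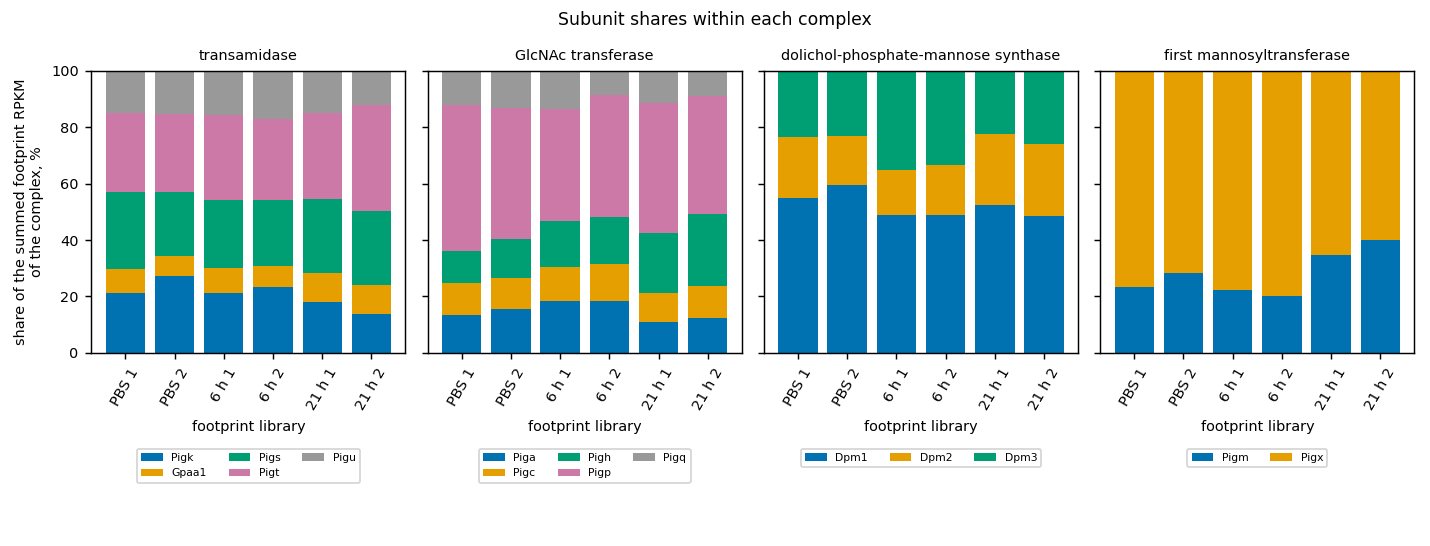
Share of each subunit in the summed footprint RPKM of its complex, in percent from 0 to 100, for each of the 6 footprint libraries; colours mark the subunits named under each panel. The Pigh share is largest in the 21 h libraries, the Dpm3 share in the 6 h libraries and the Pigk share is smallest in the 21 h libraries.

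Within the transferase, the share of Pigh in the summed footprint RPKM of the 5 measured subunits was 11.5% and 13.9% with PBS, 16.3% and 16.4% at 6 h, and 21.5% and 25.6% at 21 h. The Piga share was 13.4% and 15.7% with PBS, 18.5% and 18.3% at 6 h, and 10.9% and 12.4% at 21 h. The Pigh share in RNA was 12.0% and 8.11% with PBS, 10.7% and 6.91% at 6 h, and 12.5% and 14.9% at 21 h, with the 21 h libraries again highest. Shares carry no test here.

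The following steps remove the acetyl group (Pigl) and acylate the inositol (Pigw), and neither enzyme was called. Pigl had footprint RPKM of 12.96 and 7.66 with PBS, 15.5 and 11.4 at 6 h, and 9.69 and 6.06 at 21 h, and the groups at PBS and 21 h overlapped. Its RNA, with 5 to 19 reads per library, was 1.68 and 3.01 RPKM with PBS, 3.71 and 2.39 at 6 h, and 1.97 and 1.10 at 21 h. From 6 to 21 h, this was the lowest RNA log2 change among the members, at -0.93 (SE 0.36, adjusted p = 0.114).

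Mannoses are then added in the lumen of the ER. Pigm, which adds the first of them, had footprint RPKM of 6.97 and 8.96 with PBS, 6.89 and 7.004 at 6 h, and 11.5 and 15.3 at 21 h. The 21 h libraries were above all others. Pigm footprints rose 1.60-fold over PBS at 21 h (log2 0.68, SE 0.21, adjusted p = 0.0319) and 1.83-fold over 6 h (log2 0.87, SE 0.21, adjusted p = 0.0157). The call against PBS was lost without PBS replicate 1 (0.185), without 21 h replicate 2 (0.156) and without the filter (0.0639), and that against 6 h without either 6 h library or 21 h replicate 2 (0.0665 to 0.0799). RNA of Pigm was 2.58 and 1.92 RPKM with PBS, 2.47 and 1.78 at 6 h, and 2.10 and 1.71 at 21 h, so that the RNA groups overlapped throughout.

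Pigx, the partner that stabilizes Pigm, gave the opposite picture. Its footprint RPKM were 22.7 and 22.5 with PBS, 23.8 and 28.0 at 6 h, and 21.7 and 22.9 at 21 h, and its RNA was 6.54 and 9.72 with PBS, 10.1 and 6.54 at 6 h, and 12.97 and 16.4 at 21 h. The RNA libraries at 21 h were above all others, with a change of 0.75 (SE 0.25) and an adjusted p of 0.0529 that missed the threshold but passed it under 5 other settings. In the ratio of footprints to RNA, Pigm and Pigx were the members with the highest (0.93, SE 0.35, adjusted p = 0.307) and the lowest (-0.80, SE 0.31, adjusted p = 0.314) log2 change at 21 h, and neither was called. The share of Pigm in the summed footprints of the pair was 23.5% and 28.5% with PBS, 22.5% and 20.0% at 6 h, and 34.7% and 40.1% at 21 h, while its share in the summed RNA was 28.3% and 16.5%, 19.6% and 21.4%, and 14.0% and 9.45%.

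Pigb, which adds the third mannose, had footprint RPKM of 4.49 and 5.01 with PBS, 5.24 and 4.56 at 6 h, and 2.34 and 2.11 at 21 h. Both 21 h libraries, with 14 and 12 reads, were below the other 4, which had 25 to 40 reads. Pigb footprints fell 1.97-fold against PBS (log2 -0.98, SE 0.23, adjusted p = 0.0105) and 2.00-fold against 6 h (log2 -1.003, SE 0.23, adjusted p = 0.013). Without PBS replicate 2 the first of these had an adjusted p of 0.0771, and without 6 h replicate 1 the second had 0.0784. Pigb RNA was at 3 to 16 reads per library (1.01 and 1.71 RPKM with PBS, 1.25 and 1.34 at 6 h, and 0.400 and 1.04 at 21 h), and its change of -0.68 at 21 h (adjusted p = 0.224) was not called. Pigv, which adds the second mannose, was under the RNA filter and had 6 to 13 footprint reads per library, and it was not called.

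Phosphoethanolamine is added to the mannoses by Pign, Pigg and Pigo. Pign, which acts on the first mannose, had footprint RPKM of 4.54 and 6.15 with PBS, 4.73 and 3.50 at 6 h, and 2.72 and 2.67 at 21 h. The 21 h libraries lay below all others. Pign footprints fell 1.85-fold at 21 h (log2 -0.89, SE 0.26, adjusted p = 0.0254), a call that was lost without PBS replicate 2 (log2 -0.68, adjusted p = 0.176) and without either 21 h library (0.063 and 0.0721). Its RNA was 2.82 and 3.52 RPKM with PBS, 2.09 and 3.08 at 6 h, and 2.48 and 2.62 at 21 h, with a change of -0.33 at 21 h (adjusted p = 0.415).

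Pigf, the partner that both Pigg and Pigo need, moved the other way. It had footprint RPKM of 15.5 and 12.7 with PBS, 10.7 and 21.6 at 6 h, and 26.8 and 24.4 at 21 h. Its RNA was 5.34 and 4.53 RPKM with PBS, 3.57 and 3.51 at 6 h, and 10.4 and 11.6 at 21 h. The 21 h libraries were above all others in both assays, although the RNA rested on 7 to 24 reads per library. Pigf RNA rose 2.01-fold over PBS (log2 1.005, SE 0.20, adjusted p = 0.00654) and 2.59-fold over 6 h (log2 1.37, SE 0.20, adjusted p = 0.00261), the latter under every alternative and the former except without PBS replicate 2 (0.0532). Pigf footprints rose 1.75-fold over PBS (log2 0.81, SE 0.28, adjusted p = 0.0484), close to the threshold, and this call was lost when any of the 4 libraries compared was left out (0.0964 to 0.205), without the filter (0.102), without the eBayes trend (0.109), with a pseudocount of 0.1 (0.052) and with the replicate block (0.0556).

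Pigg and Pigo were not called in any comparison. Pigg had footprint RPKM of 4.50 and 5.89 with PBS, 5.42 and 5.02 at 6 h, and 4.32 and 3.79 at 21 h. Its RNA was 1.42 and 1.21 RPKM with PBS, 0.661 and 0.947 at 6 h, and 1.502 and 1.99 at 21 h, from 6 to 19 reads per library. The 6 h RNA libraries were lowest, and the change of -0.44 (adjusted p = 0.644) was the lowest RNA log2 change among the members at 6 h.

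The finished anchor is transferred to proteins by the transamidase, in which Pigk is the protease subunit. Pigk had footprint RPKM of 40.1 and 49.2 with PBS, 41.3 and 44.5 at 6 h, and 29.7 and 27.2 at 21 h, from 126 to 304 reads. Its RNA was 10.1 and 9.002 RPKM with PBS, 5.72 and 7.62 at 6 h, and 5.85 and 6.52 at 21 h. The PBS libraries were above the 21 h libraries in both assays. Pigk footprints fell 1.59-fold at 21 h against PBS (log2 -0.67, SE 0.14, adjusted p = 0.00523), under every alternative, and 1.52-fold against 6 h (log2 -0.61, SE 0.14, adjusted p = 0.0117), which was lost without 6 h replicate 2 (0.0794) or 21 h replicate 2 (0.0512). Pigk RNA fell 1.59-fold at 21 h (log2 -0.67, SE 0.20, adjusted p = 0.0378), and this call was lost when any of the 4 libraries compared was left out (0.0917 to 0.194), without scaling (0.0613), without the filter (0.069), without the trend (0.058) and with voom (0.0734).

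Pigu, another transamidase subunit, had footprint RPKM of 28.4 and 27.8 with PBS, 30.5 and 32.2 at 6 h, and 24.7 and 23.9 at 21 h. Its RNA was 7.70 and 8.43 RPKM with PBS, 8.31 and 4.24 at 6 h, and 3.15 and 4.09 at 21 h, from 12 to 40 reads per library. The 21 h libraries were lowest in both assays. Pigu RNA fell 2.20-fold at 21 h (log2 -1.14, SE 0.29, adjusted p = 0.0191), a call lost without either PBS library (0.0796 and 0.0976), without 21 h replicate 1 (0.0883), without the filter (0.0553) and without the trend (0.0541). Pigu footprints had a smaller change against PBS (log2 -0.24, adjusted p = 0.134) and fell 1.30-fold against 6 h (log2 -0.38, SE 0.12, adjusted p = 0.0368), which was lost when any of the 6 libraries was left out (0.0555 to 0.181) and under 4 further settings (0.0506 to 0.0584). The difference between the footprint and RNA changes of Pigu at 21 h, its log2 TE change, was 0.90 (SE 0.33, adjusted p = 0.301).

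Gpaa1, Pigs and Pigt were not called in any comparison, although Pigt footprints at 21 h were called higher when 21 h replicate 1 was left out. The summed footprint RPKM of the 5 subunits was 188 and 181 with PBS, 194 and 190 at 6 h, and 166 and 195 at 21 h, so that PBS lay within the range at 21 h. The share of Pigk in these footprints was 21.3% and 27.2% with PBS, 21.3% and 23.4% at 6 h, and 17.9% and 14.0% at 21 h. In RNA, the share of Pigu was 12.3% and 14.0% with PBS, 15.7% and 8.99% at 6 h, and 5.96% and 7.33% at 21 h.

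Remodelling starts with Pgap1, which removes the acyl chain from the inositol in the ER. Pgap1 had footprint RPKM of 41.1 and 36.0 with PBS, 26.6 and 28.9 at 6 h, and 18.8 and 17.8 at 21 h, from at most 592 reads. Its RNA was 8.06 and 8.96 RPKM with PBS, 6.38 and 6.34 at 6 h, and 4.18 and 3.75 at 21 h. In both assays all 3 groups were apart, with PBS highest and 21 h lowest. Pgap1 fell 2.12-fold at 21 h against PBS in footprints (log2 -1.09, SE 0.13, adjusted p = 0.000346) and also 2.12-fold in RNA (log2 -1.09, SE 0.20, adjusted p = 0.00407), and both calls held under every alternative. Its TE change at 21 h was 0.00 with a 95% confidence interval of -0.46 to 0.46 on the log2 scale.

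The lower Pgap1 footprints at 6 h (log2 -0.48, SE 0.13) had an adjusted p of 0.0872 and were called by voom alone. From 6 to 21 h, Pgap1 footprints fell 1.52-fold (log2 -0.61, SE 0.13, adjusted p = 0.00816), which was lost without 6 h replicate 2 (0.0655). The RNA fell 1.69-fold (log2 -0.76, SE 0.20, adjusted p = 0.028), which was lost when any of the 6 libraries was left out (0.0506 to 0.122), without scaling (0.0538), without the filter (0.056) and with only the groups compared (0.0591). Pgap1 was thus the only member called lower at 21 h against PBS and against 6 h in both assays.

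Pgap6, described as a phospholipase that cuts anchors at the cell surface, was the member with the highest footprint log2 change at 21 h. It had footprint RPKM of 0.666 and 0.744 with PBS, 1.94 and 0.899 at 6 h, and 3.06 and 2.73 at 21 h, from 8, 8, 21, 7, 26 and 22 reads, so that both PBS libraries and 6 h replicate 2 were under 1 RPKM, and it passed the filter through its mean over all 6 libraries. The 21 h libraries were above all others. Pgap6 footprints rose 2.76-fold at 21 h (log2 1.47, SE 0.36, adjusted p = 0.0125), and this call was lost without either PBS library (0.0645 and 0.0537) and without 21 h replicate 1 (0.0518). In RNA, where it was under the filter, Pgap6 had 3 and 5 reads with PBS, 1 and 8 at 6 h, and 13 and 9 at 21 h, so that the 21 h libraries held the most reads there as well.

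Mppe1, a phosphodiesterase that removes phosphoethanolamine from the second mannose, had footprint RPKM of 9.36 and 9.55 with PBS, 11.5 and 7.96 at 6 h, and 8.20 and 7.21 at 21 h. Its RNA was 1.79 and 3.87 RPKM with PBS, 3.64 and 2.95 at 6 h, and 2.93 and 2.49 at 21 h. It was not called, and its TE change at 6 h (log2 -0.32, SE 0.41, adjusted p = 0.905) was the lowest of the members. The Golgi lipid remodelling genes Pgap3 and Pgap2 were not called either. Pgap4 had 1 and 4 footprint reads with PBS and 0 in the 4 Cis libraries, and 1, 0, 2, 1, 2 and 0 RNA reads, at or near the floor of 3 reads, so that no change was detectable at this depth.

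Mannose for the anchor comes from dolichol-phosphate-mannose, made by Dpm1 with the small membrane subunits Dpm2 and Dpm3, which also serve other glycosylation pathways. Dpm3, which tethers Dpm1 to the ER membrane, was the 1 member called at 6 h. It had footprint RPKM of 43.2 and 37.3 with PBS, 74.1 and 76.2 at 6 h, and 46.2 and 53.9 at 21 h, from 47 to 96 reads. The 6 h libraries were above the other 4. Dpm3 footprints rose 1.84-fold at 6 h (log2 0.88, SE 0.12, adjusted p = 0.0209) and fell 1.52-fold from 6 to 21 h (log2 -0.61, SE 0.12, adjusted p = 0.00639). The rise at 6 h was lost when any of the 4 libraries compared was left out (0.0591 to 0.17), without the filter (0.0629) and without the trend (0.084), whereas the fall from 6 to 21 h held under every alternative.

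RNA of Dpm3 was 5.89 and 5.42 RPKM with PBS, 7.31 and 5.24 at 6 h, and 5.71 and 6.36 at 21 h, from 10 to 13 reads per library, and the groups at PBS and 6 h overlapped. Its TE change at 6 h, 0.70 on the log2 scale (SE 0.23), was the highest of the members, with an unadjusted p of 0.0115 and an adjusted p of 0.476. Dpm2, which also binds the GlcNAc transferase, had footprint RPKM of 39.9 and 27.6 with PBS, 33.7 and 39.8 at 6 h, and 52.4 and 52.7 at 21 h. The 21 h libraries were above all others. Dpm2 footprints rose 1.54-fold at 21 h (log2 0.62, SE 0.17, adjusted p = 0.0184), and the value without PBS replicate 2 was 0.37 (adjusted p = 0.11). The Dpm2 call was also lost without either 21 h library (0.0519 and 0.0596) and without the trend (0.0562). RNA of Dpm2 was 5.75 and 11.2 RPKM with PBS, 8.56 and 9.20 at 6 h, and 11.3 and 10.5 at 21 h, and its PBS libraries spanned all but 1 of the others.

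Dpm1 had footprint levels of 101 and 95.7 RPKM with PBS, 103 and 112 at 6 h, and 109 and 101 at 21 h, and was not called by limma in any comparison, although voom called its RNA higher at 21 h than at 6 h. Within the summed footprints of the synthase, the Dpm3 share was 23.5% and 23.2% with PBS, 35.2% and 33.5% at 6 h, and 22.3% and 26.03% at 21 h. The Dpm2 share was 21.7% and 17.2% with PBS, 15.98% and 17.5% at 6 h, and 25.2% and 25.4% at 21 h.

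To see whether the changes lay in the RNA or in its translation, footprint and RNA changes were set against each other by TE. At 6 h, 0 of 25 members were called in TE by limma (background 0% of 9312), 1 had an unadjusted p under 0.05, and voom called 0 (0.15% of all transcripts). At 21 h, 0 were called by limma (background 0.408%), 5 had an unadjusted p under 0.05 (Pigm, Pigu, Pgap2 and Gpaa1 toward higher and Pigx toward lower TE), and voom called 0 (1.63% of all transcripts). An unadjusted p under 0.05 was seen for 7.65% of all transcripts at 6 h and 12.7% at 21 h. Pgap1, Pigk and Pigf changed by nearly the same amount in both assays at 21 h, whereas Pigm and Pigu lay on the side of more footprints per RNA and Pigx on the other. The intervals of TE were wide, such as 0.17 to 1.70 for Pigm, so that members that missed the threshold are not shown to have an unchanged TE.

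**Figure D4:**
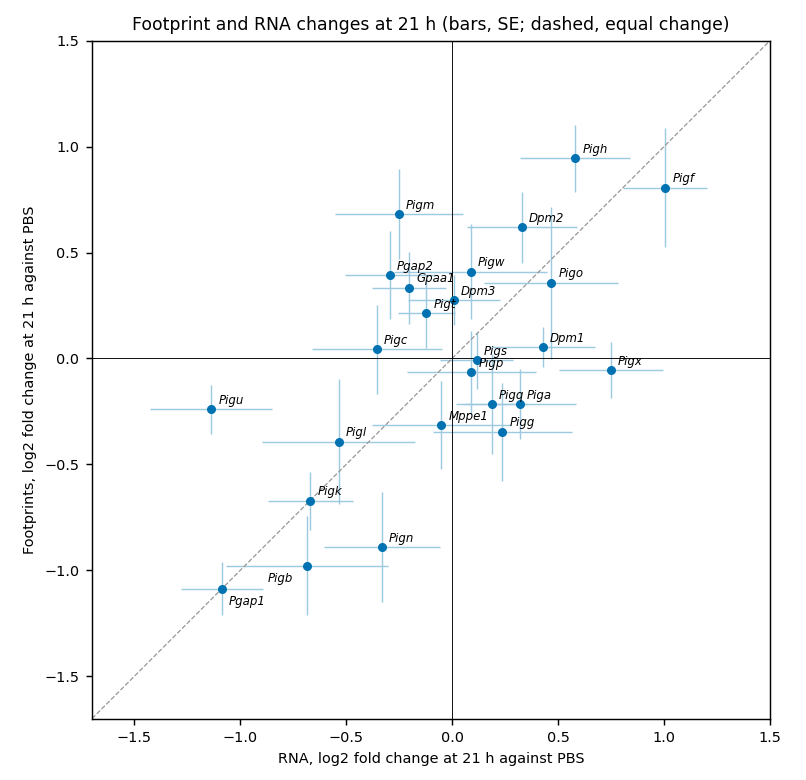
Log2 fold change at 21 h against PBS in RNA (horizontal) and in footprints (vertical) for the 25 members tested in both assays; bars are SE from limma and the dashed line marks equal change. Pgap1 (-1.09 in both) lies on the line at the lower left and Pigf (1.005 in RNA, 0.81 in footprints) at the upper right, while Pigu (-1.14 in RNA, -0.24 in footprints) lies above the line and Pigx (0.75 in RNA, -0.05 in footprints) below it.

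The members called lower at 21 h against PBS in either assay were mostly long genes. By the genomic span of the RefSeq gene, used as a length only, Pign spans 145 kb, Pigk 129 kb, Pgap1 84.7 kb and Pigu 79.2 kb. Of these, Pigu was called lower in RNA only. Pigb, with 24.4 kb, was the exception among the members called lower. Pigl, with 57.6 kb, was not called in footprints (adjusted p = 0.32) or in RNA (adjusted p = 0.315) by limma. The members that rose were shorter, with Dpm2 at 2.7 kb, Pigm at 7.6 kb, Pigh at 9.1 kb, Pgap6 at 10.5 kb and Pigf at 28.1 kb. All transcripts showed the same order. Median footprint changes at 21 h over all transcripts were 0.20 for spans under 10 kb, 0.11 for 10 to 50 kb, -0.33 for 50 to 100 kb and -1.08 over 100 kb. The members' medians in these classes were 0.51 (6 members), -0.01 (17), -0.39 (3) and -0.78 (2).

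The rank correlation of span and footprint change at 21 h was -0.681 over the 28 members and -0.492 over all 10343 transcripts with a span, given as a description since genes share the same libraries. For RNA at 21 h it was -0.382 over 25 members and -0.375 over all 9411 transcripts. Over 100 kb, 74.9% of all transcripts were called lower in footprints at 21 h, and both members of that length, Pigk and Pign, were called lower. Between 10 and 50 kb, 10.5% of all transcripts were called lower, and of the 17 members only Pigb was.

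**Figure D5:**
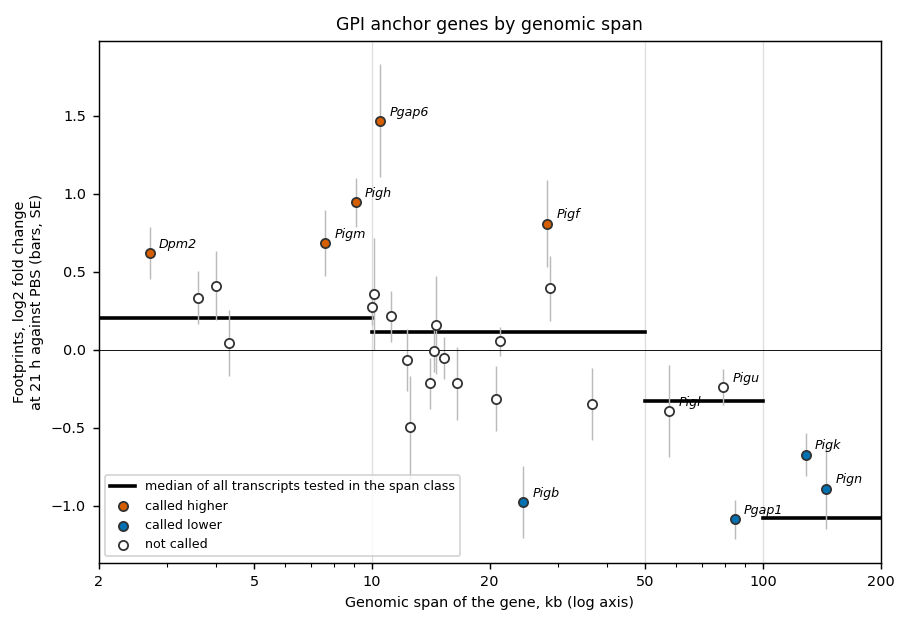
Footprint log2 fold change at 21 h against PBS (vertical, bars are SE) against the genomic span of the gene in kb (horizontal, log axis) for the 28 members tested; orange points were called higher, blue points lower and open points were not called, and black bars are the medians of all transcripts tested in the 4 span classes. The members called higher span at most 28.1 kb, and both members over 100 kb were called lower.

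Other genes of the pathway were read from a list of 26 genes for the precursors and cofactors, such as the phosphomannomutases, the dolichol pathway and the p24 cargo receptors that carry anchored proteins out of the ER. Of these, 22 were tested in footprints, 0 were called at 6 h, and at 21 h 4 were higher and 4 lower, with a median of 0.03 (all transcripts, 0.01). Together these were 36.4% of the tested genes of the list, near the background of 18.9% of all transcripts higher and 20.2% lower. Pmm1, a phosphomannomutase, rose from 34.1 ± 1.17 to 50.7 ± 1.08 footprint RPKM (SD, n = 2; log2 0.53, adjusted p = 0.00643), and Mpdu1, which is needed to use dolichol-phosphate-mannose, from 35.6 ± 1.61 to 48.3 ± 1.58 (log2 0.40, adjusted p = 0.0218). Among the p24 family, Tmed2 and Tmed9 were called higher, Tmed9 from 160 ± 23.8 to 209 ± 15.2 (log2 0.36, adjusted p = 0.0286). Tmed10 fell from 398 ± 10.5 to 268 ± 4.22 (log2 -0.61, adjusted p = 0.000498). Clptm1l, a scramblase of an early GPI precursor, fell from 31.4 ± 0.838 to 23.1 ± 1.19 (log2 -0.47, adjusted p = 0.0332), and Pcyt2, which makes the ethanolamine donor CDP-ethanolamine, from 47.1 ± 2.72 to 37.5 ± 0.454 (log2 -0.36, adjusted p = 0.0428). In RNA at 21 h, 0 of 22 were higher and 1 was lower, Tmed10 (log2 -0.42, adjusted p = 0.0449), against the background of 11.6% higher and 12.2% lower.

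The proteins that receive the anchor were read from a list of 77 genes of GPI-anchored proteins, of which 29 were tested in footprints. At 6 h 0 were called, and at 21 h 2 were higher and 11 lower, where 18.9% of all transcripts were higher and 20.2% lower. The median of the list was -0.36 (all transcripts, 0.01). The 2 that rose were Plaur, the urokinase receptor, from 90.3 ± 11.1 to 137 ± 10.4 footprint RPKM (SD, n = 2; log2 0.57, adjusted p = 0.00642), and Prnp, the prion protein, from 29.9 ± 3.31 to 40.2 ± 1.02 (log2 0.39, adjusted p = 0.0305). The largest falls were those of the ephrin Efna5, from 39.1 ± 8.69 to 2.90 ± 2.41 (log2 -3.77, adjusted p = 0.000316), the cadherin Cdh13, from 18.0 ± 1.61 to 3.38 ± 0.055 (log2 -2.28, adjusted p = 3.24e-05), and Ly6d, from 28.6 ± 2.28 to 9.43 ± 3.78 (log2 -1.64, adjusted p = 0.000905). Mean footprint reads per library were 133 with PBS and 7 at 21 h for Efna5, 190.5 and 26 for Cdh13, and 54 and 13 for Ly6d. Efna5 spans 278 kb and Cdh13 1185 kb, but Ly6d only 1.5 kb, and 3 of the 11 that fell span 50 kb or more. In RNA at 21 h, 27 were tested, 0 were higher and 6 lower, where 11.6% of all transcripts were higher and 12.2% lower, with a median of -0.35 (all transcripts, 0.02).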

How the data were processed

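KPC cells received PBS, or 20 μM Cis for 6 or 21 h, with 2 footprint and 2 RNA libraries per group. Groups and replicate numbers are from the labels, and the dose is from the methods of the study. The members and the gene lists were chosen with earlier results of these data known.

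The authors deposited RPKM for a representative transcript of each gene and library, with replicates not pooled. The submitters' processing notes name cutadapt, STAR and GRCm39. The counting tool, and how reads of overlapping or antisense genes were assigned, are not given in the sources used here. Transcripts not listed in a library were set to 0. RPKM times length were whole multiples of a single read for 100% of 144209 values (tolerance 0.01), which gave reads and depth. The reads of replicate libraries differed beyond counting error (chi-square divided by its degrees of freedom, 1.45 to 3.97). Read numbers and the floor of 3 reads cover counting error only.

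RPKM were scaled by median-of-ratios factors within each assay, filtered at a mean of 1, and taken to log2 after adding 0.5. For each assay, limma 3.58.1 in R 4.3.3 fitted PBS, 6 h and 21 h jointly (eBayes, trended variance; two-sided tests), with Benjamini-Hochberg adjustment over all transcripts and a threshold of 0.05. TE was the interaction of assay and treatment over 12 libraries. The smallest p an exact permutation test could reach in this design is 0.333. Scripts were tested on simulated data. Members named with all values had an adjusted p under 0.05 in any of the 8 comparisons or the highest or lowest change in a comparison. Of the other lists, at most the 3 largest rises and falls were given with values. As alternatives, the pseudocount was set to 0.1 or 1, the filter was dropped or raised to 5, and fits were made with no scaling, no eBayes trend, the replicate block, voom on the recovered reads, only the groups compared, and each library left out in turn. Genomic span and promoters were matched by symbol to RefSeq on GRCm38.p6 (span for 99.1% of 15803 transcripts) and coordinates are of that build. Other steps used pandas 2.3.3, numpy 2.4.6 and matplotlib 3.10.9 under Python 3.11.15.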

Additional observations from a re-analysis of the deposited data

Results flagged for a closer look

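Of the members' changes, 10 differed between 6 and 21 h of Cis by limma's test of the difference itself, with 8 in footprints and 2 in RNA. These were 28.6% of the members tested in footprints and 8% in RNA. Of all transcripts tested, 15% were higher and 15.7% lower in footprints, and 7.53% higher and 8.2% lower in RNA. The members' shares were thus not above that background. In footprints, Pigh (0.5 on the log2 scale, 21 h minus 6 h) and Pigm (0.87) were higher at 21 h than at 6 h. Piga (-0.63), Pigb (-1.0), Pigk (-0.61), Pigu (-0.38), Pgap1 (-0.61) and Dpm3 (-0.61) were lower. In RNA, Pigf was higher at 21 h than at 6 h (1.37) and Pgap1 lower (-0.76). The largest of these in footprints by size, Pigb, rested on 14 and 12 reads at 21 h. Of the 10 differences, those of Dpm3 footprints and Pigf RNA held under every alternative and without any single library.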

How the results depend on the processing

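Most calls of single members depend on 1 library or setting, with 2 libraries per group. At 6 h the number of members called in footprints (1) was 0 without the filter or without the eBayes trend, 2 with voom (Dpm3 higher and Pgap1 lower), and 0 to 1 when a library was left out. The 9 members called in footprints at 21 h became 4 to 9 when a library was left out, and the 8 between 21 and 6 h became 3 to 7. In RNA, the 4 at 21 h became 2 without the filter or the trend and 1 to 5 when a library was left out, and the 2 between 21 and 6 h became 1 without the filter, without scaling or with only the groups compared, and 1 to 2 when a library was left out. RNA at 6 h and TE stayed at 0 members throughout, and no called member changed direction in any alternative. Where a group was left with 1 library, that library was assumed to vary like the other groups. The cause was not tested.

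The replicate number is shared by the groups as a label only, since the deviations of same-numbered libraries had correlations of -0.014 to 0.021. With the replicate block, 8 members were called in footprints at 21 h in place of 9, and 7 between 21 and 6 h in place of 8, and the counts in RNA and TE and in footprints at 6 h were the same.

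Further members were called in some alternatives, namely Dpm3 and Pigt in footprints at 21 h against PBS (without 21 h replicate 1), Dpm2, Pigl and Pigf in footprints at 21 h against 6 h, Pigx in RNA at 21 h against PBS, and Dpm1 and Pigu in RNA at 21 h against 6 h. The share of all transcripts called moved as well, from 0% without the trend to 12.3% with voom for footprints at 6 h. It went from 26.7% to 44.7% for footprints at 21 h, from 15.4% to 36.4% for footprints between 21 and 6 h, from 11.2% to 31.8% for RNA at 21 h and from 6.26% to 22.1% between 21 and 6 h in RNA. Depth limits RNA most, where members had as few as 3 reads in a library and passed the filter.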

Other observations

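The members also differed in how many footprints they had for their RNA. With PBS, the ratio of mean footprint RPKM to mean RNA RPKM was highest for Dpm1 (8.72) and Dpm3 (7.12), followed by Pigp (4.75), Pigk (4.66) and Pgap1 (4.53). It was lowest for Pgap2 (0.689), which acts in lipid remodelling in the Golgi, and for Pigq (0.729), a subunit of the GlcNAc transferase, followed by Gpaa1 (1.496). Pigq thus had the most RNA of its complex with PBS (12.1 RPKM) but a lower footprint level than Pigp (8.81 against 34.6 RPKM). At 21 h the lowest ratio was that of Pigq (0.535), followed by Pign (1.06) and Pgap2 (1.11). Levels are per length of coding sequence in footprints and of transcript in RNA. With PBS, Lars2, Tmem38b and Mettl26 took 54.5% and 53.8% of the RNA reads but at most 0.005% of the footprint reads. This lowers the RNA RPKM of all members and raises their ratios, so that the ratios are given for their order only. The PBS ratio of Dpm3 rested on 12 and 13 RNA reads and that of Pigp on 14 and 22. Replicate spread of the ratios was not tested, and members under the RNA filter (Pgap3, Pgap4, Pgap6, Pigv) are left out of the order.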
